A study of Mus musculus with 8 samples.

Results

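The 36 cell cycle and DNA replication genes described here comprise 8 cyclins, 4 cyclin-dependent kinases, 3 kinase inhibitors, 2 CDC25 phosphatases, 4 genes of the E2F and retinoblastoma group, 7 DNA replication genes and 8 mitosis and proliferation markers. They were read out by name from a table of accessible chromatin: every peak whose assigned gene was one of the 36 was taken, and its tags were summed over all peaks of the gene and over its promoter peaks alone. All 36 genes had a peak, out of 16095 genes with one, and together they held 186 of the 67822 peaks. The assay was ATAC-seq, which marks open chromatin by letting a transposase cut it and add adapters, and the cells were CD11b+ microglia from the forebrain of mice. The 4 wild-type libraries came from mice of the C57BL/6N background and the 4 knockout libraries from mice lacking Cias1, an older name of the inflammasome sensor gene Nlrp3; the labels call this line Nlrp3-/- and give its source as Millennium Pharmaceuticals. No treatment is named for either genotype, and the labels state neither the age nor the sex of the mice. Nothing states that replicates were separate animals, so p-values measure the spread between these libraries, which may be technical.

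Progress through the cell cycle is driven by cyclin-dependent kinases bound to cyclins, restrained by kinase inhibitors and released by CDC25 phosphatases. Retinoblastoma proteins hold E2F factors in check until cyclin D and cyclin E kinases phosphorylate them, and E2F factors then switch on the genes that replicate DNA. Genes of mitosis are commonly controlled through a CCAAT box, bound by NF-Y, and a cell cycle genes homology region (CHR), bound by the MuvB core of the DREAM complex. Microglia renew themselves by slow local division in the healthy adult brain and divide faster after injury.

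Most of the promoters searched carried letters of those elements. Those of Cdk4, Cdk6, Cdkn1a, Cdkn2c and E2f1 carried no CCAAT, CHR or E2F letters. RefSeq promoter windows (GRCm38.p6, 250 bases before to 50 after a start site) were matched for 29 of the 36 genes, and the windows of 28 of them overlapped a peak of the same gene; the exception was E2f1. The stretches below, 150 bases that end just before the outermost annotated start of each gene, are shown because they belong to genes the results turn on or hold the clearest set of elements. Capitals mark the CCAAT box, which reads ATTGG on the other strand. They also mark the CHR, searched as TTTGAA and in the variant TTTAAA. The E2F letters searched were TTTCCCGC or TTTCGCGC or TTTGCCGC or TTTGGCGC, and each element was searched on either strand.
Cdk1, chr10:69352913-69353062, minus strand: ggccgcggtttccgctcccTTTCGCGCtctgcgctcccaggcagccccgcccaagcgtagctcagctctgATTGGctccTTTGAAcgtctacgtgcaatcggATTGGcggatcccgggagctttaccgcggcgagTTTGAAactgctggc
Ccnb1, chr13:100786487-100786636, minus strand: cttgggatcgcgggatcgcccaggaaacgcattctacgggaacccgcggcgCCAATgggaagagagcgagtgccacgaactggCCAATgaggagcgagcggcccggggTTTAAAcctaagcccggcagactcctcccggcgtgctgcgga
Cdc20, chr4:118437344-118437493, minus strand: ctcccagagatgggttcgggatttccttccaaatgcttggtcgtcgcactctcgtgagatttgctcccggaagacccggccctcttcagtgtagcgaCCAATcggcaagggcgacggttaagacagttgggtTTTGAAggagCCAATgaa
Plk1, chr7:122159285-122159434, plus strand: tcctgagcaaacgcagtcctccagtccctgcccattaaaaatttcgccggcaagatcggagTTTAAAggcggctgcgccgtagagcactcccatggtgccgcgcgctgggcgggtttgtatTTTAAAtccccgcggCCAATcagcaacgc
Mcm6, chr1:128359706-128359855, minus strand: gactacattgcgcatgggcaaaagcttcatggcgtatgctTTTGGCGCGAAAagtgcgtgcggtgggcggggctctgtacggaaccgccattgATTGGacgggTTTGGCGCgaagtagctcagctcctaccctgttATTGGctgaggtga
Cdc25a, chr9:109875368-109875517, plus strand: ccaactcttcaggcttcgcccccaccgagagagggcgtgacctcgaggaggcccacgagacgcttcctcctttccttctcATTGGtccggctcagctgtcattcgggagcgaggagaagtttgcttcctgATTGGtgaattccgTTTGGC
E2f3, chr13:29986065-29986214, minus strand: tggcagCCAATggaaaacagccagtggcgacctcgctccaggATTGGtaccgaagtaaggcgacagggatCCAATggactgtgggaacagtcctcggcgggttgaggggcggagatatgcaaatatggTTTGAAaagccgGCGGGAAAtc
The stretches of Cdk1, Ccnb1, Cdc20, Plk1 and Cdc25a lay wholly inside a peak, while 124 bases of the Mcm6 stretch and 122 of the E2f3 stretch did. The mitotic genes Cdk1, Ccnb1, Cdc20 and Plk1 each held CCAAT and CHR letters in their 150 bases. The replication gene Mcm6 held 3 E2F matches, of which 1 pair overlaps on opposite strands, and 2 CCAAT boxes, and no CHR letters. The last capitals of the Cdc25a stretch are the start of an E2F match that runs past its end.

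Over the whole 300-base windows, 22 of 29 members (75.9%) held CCAAT, against 37.4% of 32851 windows in the RefSeq table and 38.9% of the 11733 windows that overlapped a peak. CHR letters were present in 15 members (51.7%), against 27.6% of all windows and 17.1% of those with a peak, and both elements in 13 members (44.8%), against 10.7% and 7.0%. The 13 genes with both were Ccnb1, Ccnb2, Cdk1, Cdkn1b, E2f2, E2f3, Mcm2, Mcm5, Mki67, Top2a, Plk1, Aurka and Cdc20. E2F letters were found in 7 members (24.1%), namely Cdk1, Cdk2, Cdc25a, E2f3, Mcm3, Mcm5 and Mcm6, against 2.3% of all windows and 4.4% of those with a peak. The GC box GGGCGG was present in 26 members (89.7%), against 35.7% and 66.4%. CpG dinucleotides numbered a median of 25 per member window (7 to 48), against 7 in all windows and 22 in windows with a peak. These letter matches describe sequence only, and no factor's binding was measured.

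Library facts bear on every value below. Total tags ranged from 11325865 to 15521580 per library. The share of tags inside the peaks ranged from 9.79% to 17.5% in wild type and from 4.96% to 26.2% in knockout, where replicates 1 and 2 (6.68% and 4.96%) stood below and replicates 3 and 4 (20.9% and 26.2%) above all wild-type libraries. The genotype check held: the 2 Nlrp3 promoter peaks had 112 to 149 tags in each wild-type library and 0 to 2 in each knockout library. All 14 microglia markers had a peak, and their 13 tested promoters summed to 961 to 1201 promoter CPM in wild type, where CPM is a tag count scaled by TMM to a common total, here the tags in all tested promoter sums, and 1051 to 1231 in knockout. None of the 8 neuron or 10 granulocyte and lymphocyte markers had a promoter peak, and none of the 9 oligodendrocyte markers had a promoter above the low-count filter. Tested promoters of other types were Mrc1 of the border macrophage list (16.5 to 26.7 in wild type, 10.6 to 26.4 in knockout), 2 of 7 astrocyte genes (38.6 to 47.9, then 41.6 to 72.0) and 2 of 8 endothelial and mural genes (101 to 110.4, then 74.9 to 143). Over all peaks, other types were less sparse. In CPM of gene sums, wild-type libraries held 2563 to 2872 for microglia markers and 522 to 586 for endothelial and mural ones. Oligodendrocyte markers held 410 to 458, astrocyte markers 329 to 412 and border macrophage and monocyte markers 224.7 to 334.5. Neuron markers held 65.55 to 76.05, and granulocyte and lymphocyte markers 63.52 to 68.97. No marker gene passed the test in either sum with edgeR or DESeq2. Under an unadjusted 0.05 with edgeR stood 4 of 14 microglia genes over all peaks and 1 of 13 at promoters, all higher in knockout, against 5.96% and 4.72% of all genes in either direction. Markers of other types under that level were also higher in knockout: Slc1a3 of astrocytes (a log2 fold change of 0.33 over all peaks and 0.87 at its promoter), Syt1 of neurons (0.62), Clec12a of the border macrophage and monocyte list (0.68) and Mag of oligodendrocytes (0.62). Their lists as a whole were mixed over all peaks. Below 0 were 1 of 5 tested astrocyte genes, 2 of 4 neuron genes and 2 of 6 oligodendrocyte genes. The same held for 4 of 7 border macrophage and monocyte genes, against 49.5% of all genes. The part these cells play in the values below was not tested.

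Peaks of the cell cycle genes were unevenly divided. The median was 2.5 peaks per member, against 3 per gene in the whole table. The G1 cyclin genes Ccnd1 with 27 peaks and Ccnd3 with 13, the G1 kinase gene Cdk6 with 23 and the transcription factor gene E2f3 with 19 together held 82 peaks, or 44.1% of the 186. At the other end, 11 members had a single peak: Aurka, Ccna2, Ccnb1, Ccnb2, Ccne2, Cdc20, Mcm2, Mcm4, Mcm6, Mcm7 and Top2a. By the authors' annotation, 52 member peaks (28.0%) lay at promoters, 66 (35.5%) were intergenic and 54 (29.0%) intronic, against 19.5%, 30.3% and 42.9% of all peaks. The authors' merged list took 137 member peaks (73.7%) from both genotypes, 32 (17.2%) from the wild-type list alone and 17 (9.14%) from the knockout list alone, against 75.5%, 16.3% and 8.18% of all peaks.

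**Figure D1:**
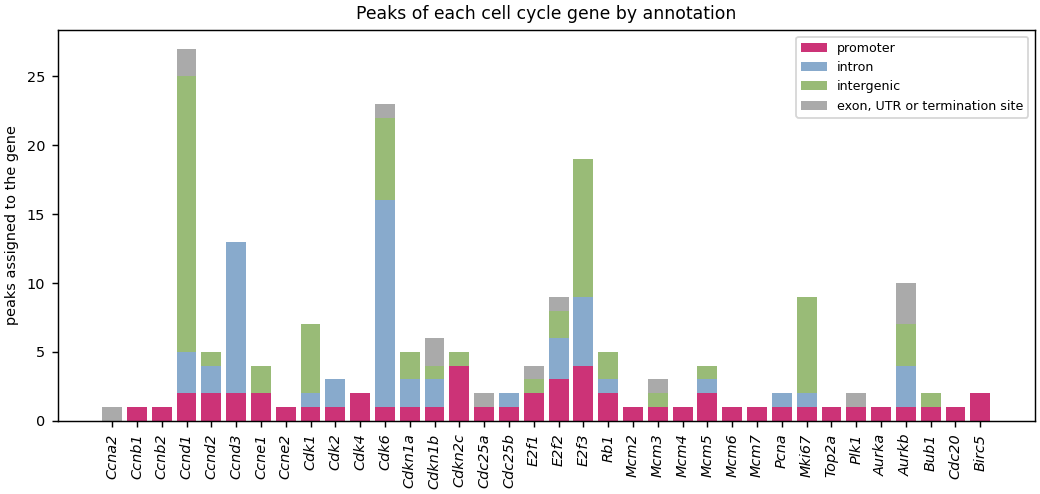
Number of peaks assigned to each of the 36 genes (y axis), stacked by the authors' annotation. Ccnd1, Cdk6, E2f3 and Ccnd3 carry 27, 23, 19 and 13 peaks, mostly intergenic or intronic, while most replication and mitosis genes carry a promoter peak and little else.

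A promoter peak was present for 35 members (97.2%), against 66.5% of all genes with a peak. The exception was Ccna2, the gene of the S-phase and mitotic cyclin A2: its only peak, chr3:36572085-36572333, was annotated to the termination site of a transcript and lay 829 bp inside the gene from the start. The peak next to Ccna2 held 56.8 to 74.7 CPM of gene sums in wild type and 59.3 to 70.8 in knockout, so the genotypes overlapped. The assignment of peaks to Aurkb, a mitotic kinase gene, also needs care, since 6 of its 10 peaks lay 9600 to 14494 bp upstream in exons or introns of another transcript. Mcm4, a subunit gene of the replicative helicase, has a promoter peak (chr16:15637405-15637647) that it shares with Prkdc, a DNA repair kinase gene. The RefSeq span of Prkdc begins inside this peak, 44 bp beyond the end of the Mcm4 span. Tags there cannot be assigned to one gene or the other. RefSeq starts of Cdk6 and Gm36470, Mcm7 and Ap4m1, and Aurka and Cstf1 also lay on opposite strands 334, 755 and 433 bp apart.

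Promoter openness was compared between genes as promoter CPM per kb of promoter peak. In wild type the median of all 10240 tested promoters was 203, and the 34 tested members had a median percentile of 49.2, with 17 of them above that median. The most open were Mcm4 at 579, the sliding clamp gene Pcna at 560.4, the phosphatase gene Cdc25a at 495, Ccnd3 at 409 and Cdc20, an activator of the anaphase-promoting complex, at 386. The least open were the mitotic kinase gene Plk1 at 63.6, Ccnd2 at 81.2 and Cdk6 at 90.4. By role, replication genes lay between 188 (Mcm7) and 579 with a median percentile of 60.9, while the 4 kinase genes lay between 90.4 (Cdk6) and 186 (Cdk4) with a median percentile of 19.8. This measure divides by the width of all promoter peaks of a gene, so a wide weak peak lowers it. As single peaks, the E2f3 peak at chr13:29986093-29986318 had 441 CPM of single peaks per kb and that of Mcm4 182. The E2f3 sum also includes a peak of 779 bp at 18.8. The order among neighbours was not tested.

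**Figure D2:**
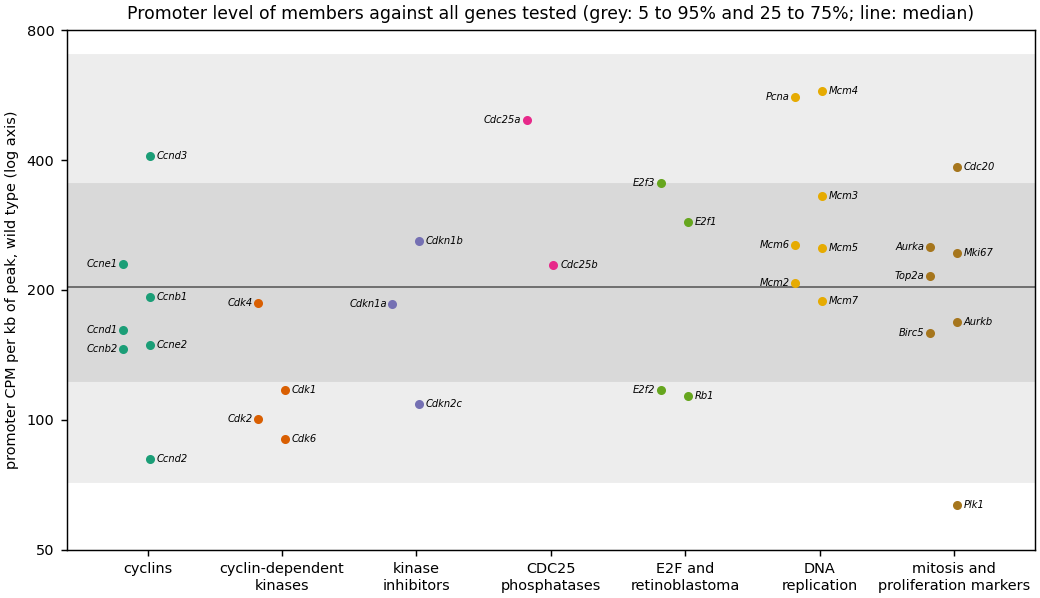
Promoter level in wild type for each tested member, as CPM per kb of peak on a log axis (mean of 4 libraries), by role. Grey bands span the middle 90% and 50% of the 10240 tested promoters and the line their median of 203; Mcm4 and Pcna stand near the top and Plk1 below the bands.

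None of the 36 genes passed the test between genotypes when all peaks of a gene were summed. Differences were tested with edgeR's quasi-likelihood method and Benjamini-Hochberg adjustment over 15476 genes at 0.05, and a fold change is given here on the log2 scale, positive where the knockout was higher. It called 0.213% of all genes, 12 higher and 21 lower. At an unadjusted p under 0.05 stood 1 member (2.78%) against 923 of all genes (5.96%). DESeq2 called 0 members, against 28 of the 16095 genes it fitted, and placed 1 member under that unadjusted level. No member had genotypes that did not overlap, against 3.46% of all genes. Over the members, 27 of 36 fold changes were below 0 (75%, against 49.5% of all genes) and the median was -0.07 against 0.00; scaled to all tags of a library in place of tags in peaks, the median became 0.04 against 0.09, and 25 members lay below the median of all genes. Without knockout replicates 1 and 2, 0 members were called, the median was -0.04 and 22 members lay below the median of all genes. Every member's 95% interval lay within a 2-fold change either way, from a lowest bound of -0.96 for Plk1 to a highest of 0.53 for Ccne2, and 28 lay within 1.5-fold. These intervals are for scaling to tags in peaks. Scaled to all tags, the SE was 0.68 for Mcm4 and 0.64 for E2f3, against 0.16 and 0.07, and their intervals went beyond 2-fold. In such bulk samples, a change in the number of dividing cells and a change in accessibility per cell cannot be told apart.

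Promoter peaks alone gave a like count. Of the 34 members tested, 0 passed edgeR's test over 10240 genes, which called 0.0781% of them. DESeq2 called 0 members, against 4 of the 10696 genes it fitted. Under an unadjusted 0.05 stood 2 members (5.88%), Cdc25a and Mcm4, against 4.72% of all, and 1 with DESeq2. No promoter had genotypes that did not overlap, against 2.84% of all. The median fold change was -0.04 against 0.01, or 0.02 against 0.05 when scaled to all tags, and 22 of 34 were below 0 (64.7%, against 48.6% of all). That median was -0.02 without knockout replicates 1 and 2, where 19 of 35 tested members lay below the median of all genes. With 1 library left out, it ran from -0.096 to 0.001. Intervals of 33 members lay within 2-fold, and that of Plk1 reached -1.21. These too are for scaling to tags in peaks: scaled to all tags, the SE of the Cdc25a promoter was 0.71 against 0.15. Precision was lower than for whole genes, with a median SE of 0.19 against 0.15. Promoters of Ccna2 (no promoter peak) and of the checkpoint kinase gene Bub1 (filtered for low counts) were not tested.

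**Figure D3:**
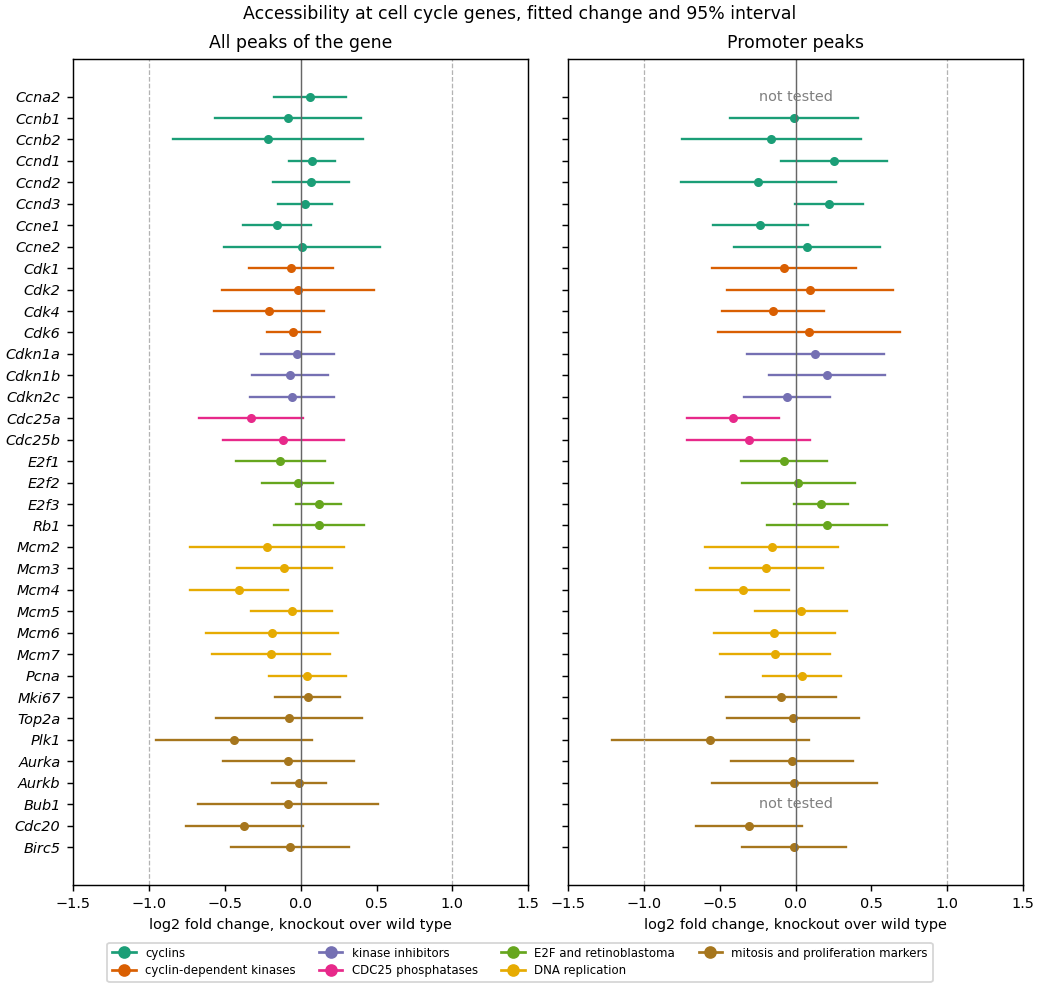
Fitted log2 fold change, knockout over wild type (x axis), with 95% intervals for each gene, from all peaks of the gene (left) and promoter peaks (right); colours give the role and dashed lines mark a 2-fold change. All left-hand intervals lie inside the dashed lines, and on the right only that of Plk1 crosses one, at -1.21.

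Beside the counts by role given from here on, 49.5% of all genes were below 0 over all peaks and 48.6% at promoters. No cyclin gene passed in either sum, and 3 of 8 fold changes over all peaks (-0.21 for Ccnb2 to 0.08 for Ccnd1) and 4 of 7 at promoters were below 0. Ccnd3, a D-type cyclin gene, had the most open cyclin promoter. Its promoter sums were 233, 209, 221 and 237 CPM in wild type and 237, 217, 285 and 275 in knockout. Knockout replicates 3 and 4 stood above all wild-type libraries, replicate 1 level with the highest of them and replicate 2 inside their range, and the fold change was 0.22 ± 0.11 (SE; edgeR adjusted p = 0.999). The 2 Ccnd3 promoter peaks belong to different start sites: the one at chr17:47504950-47505217 had a fold change of 0.32 ± 0.19 and the other, at chr17:47593209-47593491, -0.01 ± 0.17. Ccne1, whose cyclin E starts S phase, held 80.0, 103, 95.2 and 83.6 CPM over its 4 peaks in wild type and 77.9, 75.2, 74.0 and 89.6 in knockout. Knockout replicates 1, 2 and 3 lay below all wild-type libraries and replicate 4 inside their range, at -0.16 ± 0.11 (edgeR adjusted p = 0.897). The Ccne1 value was -0.25 without knockout replicate 4 and -0.10 without wild-type replicate 2. Ccnd1 summed to 329 ± 20.3 CPM in wild type and 346 ± 10.1 in knockout (mean ± SD, n = 4 each), with an interval from -0.07 to 0.23. The mitotic cyclin gene Ccnb2 was the least certain member over all peaks (SE 0.30), with 14 to 26 tags per wild-type library, 2 to 29 per knockout library and an interval from -0.84 to 0.41.

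Among the kinases, Cdk1 drives mitosis, Cdk2 acts with cyclin E and cyclin A, and Cdk4 and Cdk6 act with D-type cyclins. All 4 fold changes over all peaks were below 0 and small, from -0.21 (Cdk4) to -0.01 (Cdk2), and 2 of 4 promoters were below 0. Cdk4, the most open of the 4 promoters, held 89.0, 84.2, 116 and 109.95 CPM in wild type and 95.8, 100.4, 83.1 and 92.3 in knockout. The ranges overlapped and the interval ran from -0.49 to 0.19. The Cdk4 promoter value of -0.15 was -0.10 without knockout replicate 3 and -0.08 without wild-type replicate 3. Cdk6, with 23 peaks, had one of the narrowest intervals over the gene, from -0.22 to 0.13, while its single promoter peak ran from -0.51 to 0.69.

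The kinase inhibitor genes Cdkn1a (p21), Cdkn1b (p27) and Cdkn2c (p18) had fold changes of -0.02, -0.07 and -0.06 over all peaks and 0.13, 0.21 and -0.06 at promoters. Cdkn1b had the most open promoter of the 3, with 62.3, 56.9, 76.0 and 74.2 CPM in wild type and 54.1, 63.4, 81.6 and 90.3 in knockout. Its knockout values fell on both sides of the wild-type range, and the edgeR adjusted p was 0.999. The Cdkn1b promoter value was 0.05 without knockout replicate 4 and 0.34 without knockout replicates 1 and 2. The interval of Cdkn1a over all 5 peaks, from -0.26 to 0.22, and that of Cdkn2c, from -0.34 to 0.22, both contained 0.

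The CDC25 phosphatases remove inhibitory phosphates from cyclin-dependent kinases, and Cdc25a had the smallest promoter p of all members. Its promoter peak, chr9:109875216-109875526, held 121, 141, 168 and 186 CPM in wild type and 112, 79.3, 118 and 129 in knockout. Knockout replicates 1, 2 and 3 lay below all wild-type libraries and replicate 4 inside their range. The fold change was -0.42 ± 0.15, with an unadjusted p of 0.00829 and an edgeR adjusted p of 0.772. Without knockout replicates 1 and 2 it was -0.34 ± 0.16. Over both Cdc25a peaks the sums were 35.6, 43.9, 56.4 and 62.8 CPM of gene sums in wild type and 37.8, 31.8, 38.1 and 45.4 in knockout, a fold change of -0.33 ± 0.17 (edgeR adjusted p = 0.845), which was -0.18 ± 0.17 without wild-type replicate 4. Cdc25b lay in the same direction without passing, at -0.11 ± 0.19 over the gene and -0.31 ± 0.20 at the promoter.

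The second Cdc25a peak, chr9:109875698-109875946, was annotated to the 5′ UTR, came from the knockout list alone and had the opposite sign. It held 5, 3, 4 and 12 tags in the wild-type libraries and 5, 7, 12 and 20 in the knockout libraries, or 2.49, 2.11, 2.28 and 5.59 CPM of single peaks against 6.03, 10.3, 5.27 and 6.47. Wild-type replicate 4 fell among the knockout values, and the fold change was 0.99 ± 0.42 (edgeR adjusted p = 0.957). The promoter peak, taken as a single peak, had a fold change of -0.51 ± 0.19 (edgeR adjusted p = 0.855), on 62 to 130 tags per wild-type library and 15 to 127 per knockout library. The difference between these neighbouring peaks was not tested, and both were picked for their small p.

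E2F factors and the retinoblastoma protein set the G1 to S switch. Fold changes over all peaks were -0.13 for E2f1, -0.02 for E2f2, 0.12 for E2f3 and 0.12 for Rb1. E2f3 was the most precisely measured member: its 19 peaks summed to 381, 334, 332.5 and 345 CPM in wild type and 378, 380.5, 376 and 378 in knockout. The knockout libraries lay close together (SD 1.79), above 3 wild-type libraries and below the fourth. The fold change was 0.12 ± 0.07, with an interval from -0.03 to 0.27 (edgeR adjusted p = 0.893). The 4 E2f3 promoter peaks summed to 571, 585, 512 and 535 in wild type and 670.3, 649.9, 639 and 551 in knockout, at 0.17 ± 0.09 (edgeR adjusted p = 0.999), with replicate 4 of the knockout inside the wild-type range, and at 0.10 without knockout replicates 1 and 2. Of that sum, the peak at chr13:29984800-29985578, 798 bp upstream of an internal E2f3 start, had 10.4, 18.3, 15.4 and 14.4 CPM of single peaks in wild type and 32.6, 28.0, 15.8 and 20.7 in knockout. Knockout replicates 1 and 2, the libraries with few tags in peaks, were the highest there, and the fold change of 0.63 ± 0.24 (edgeR adjusted p = 0.898) was 0.36 ± 0.25 without them. The largest E2f3 promoter peak, chr13:29986093-29986318, which overlaps the printed stretch, had 99.6 ± 3.63 CPM in wild type and 107 ± 10.2 in knockout (mean ± SD, n = 4 each), a fold change of 0.09 ± 0.12.

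Of the replication genes, 6 of 7 had fold changes below 0 over all peaks and 5 of 7 at promoters, and none passed. Mcm2 to Mcm7 encode the subunits of the helicase that unwinds DNA at the fork, and Pcna the clamp that holds polymerases on it. Mcm4 had the smallest p over whole genes. Its single peak held 144, 153, 142 and 124 CPM of promoter sums in wild type and 79.1, 153, 109 and 108.5 in knockout. Knockout replicates 1, 3 and 4 stood below all wild-type libraries and replicate 2 above them. The fold change was -0.35 ± 0.15 among promoters (unadjusted p = 0.0266, edgeR adjusted p = 0.99) and -0.40 ± 0.16 among gene sums, where the same peak had 39.5, 45.3, 45.8 and 38.5 against 22.4, 42.0, 30.5 and 33.1 (unadjusted p = 0.0161, edgeR adjusted p = 0.671). It was -0.40 ± 0.16 in gene sums without knockout replicates 1 and 2. As stated above, this peak also lies at the start of Prkdc. The other helicase genes had fold changes over all peaks of -0.22 (Mcm2), -0.11 (Mcm3), -0.06 (Mcm5), -0.19 (Mcm6) and -0.20 (Mcm7), each with an interval that contained 0, and Pcna stood at 0.04.

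Among the mitosis and proliferation markers, 7 of 8 fold changes over all peaks and 7 of 7 at promoters were below 0, again with none passing. The promoter values included -0.01 for both Aurkb and Birc5, the kinase and the survivin subunit of the chromosomal passenger complex, -0.01 for the topoisomerase gene Top2a and -0.02 for the spindle kinase gene Aurka. Cdc20 had 90.8, 132, 112 and 94.2 promoter CPM in wild type and 54.1, 100.4, 84.6 and 93.3 in knockout. Knockout replicates 1 and 3 were below all wild-type libraries, and the fold change was -0.31 ± 0.17 (edgeR adjusted p = 0.999). Among gene sums the same Cdc20 peak had 24.9, 39.2, 36.2 and 29.2 against 15.3, 27.5, 23.7 and 28.4 CPM, at -0.37 ± 0.19 (edgeR adjusted p = 0.845). Plk1, which promotes mitotic entry and spindle assembly, had 28.5, 29.6, 28.1 and 31.4 promoter CPM in wild type and 29.1, 21.1, 13.6 and 21.3 in knockout. These rested on 13 to 22 tags per wild-type and 4 to 21 per knockout library. Knockout replicate 1 of Plk1 fell inside the wild-type range and the other 3 below it, at -0.56 ± 0.32 (edgeR adjusted p = 0.999). The Plk1 promoter peak came from the wild-type list alone. With only peaks found in both lists, Plk1 rested on its exon peak, at -0.30 ± 0.36. Over both Plk1 peaks the sums were 17.1, 20.3, 15.4 and 14.1 against 14.2, 20.3, 8.89 and 11.4, at -0.44 ± 0.25 (edgeR adjusted p = 0.881), and -0.68 ± 0.26 without knockout replicates 1 and 2. Without knockout replicate 3, Plk1 stood at -0.26 ± 0.27 over both peaks and -0.36 ± 0.35 at its promoter. Mki67, whose Ki-67 protein coats mitotic chromosomes and marks cycling cells, stood at 0.05 over its 9 peaks (interval -0.17 to 0.26) and -0.10 at its promoter.

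**Figure D4:**
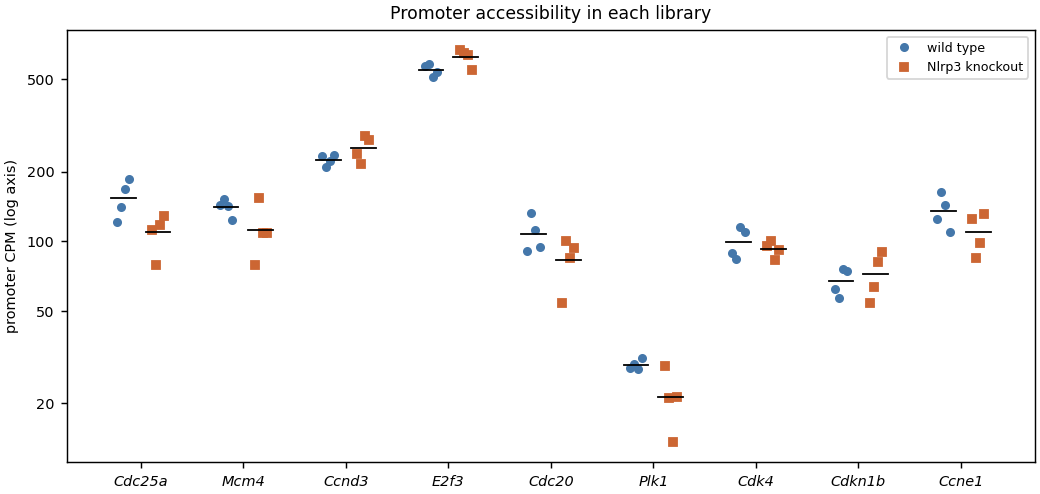
Promoter CPM (log axis) in each of the 4 wild-type (circles) and 4 knockout (squares) libraries for 9 genes, with lines at the group means. The genotypes overlap for every gene shown; for Cdc25a, 3 of the 4 knockout libraries lie below all wild-type ones.

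Single peaks were tested because peaks of one gene can differ in opposite directions. Of the 186 member peaks, 153 were tested and 33 were below the filter. With edgeR, 0 of them passed over 58135 peaks, of which 0.17% were called. DESeq2 called 0 member peaks, against 67 of the 67822 peaks it fitted. Under an unadjusted 0.05 stood 10 member peaks (6.54%) with edgeR, against 4.83% of all peaks, and 4 with DESeq2. Genotypes did not overlap at 6 member peaks (3.92%), against 3.17% of all peaks. The median fold change was -0.02 against 0.0037 for all peaks, with 83 below (54.2%, against 49.5% of all peaks) and 70 above 0.

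Those 6 peaks belonged to Ccnd1, Cdk6, E2f3, Mcm5 and Mki67, and the Mki67 pair had opposite signs. An intergenic peak 52062 bp upstream of Ccnd1 (chr7:144991805-144992170) had 6.96, 7.03, 7.40 and 7.45 CPM of single peaks in wild type and 4.83, 5.91, 3.95 and 3.23 in knockout. It came from the wild-type list alone and had a fold change of -0.84 ± 0.35 (edgeR adjusted p = 0.957) on 4 to 16 tags per library. An intronic peak 647 bp inside Mki67 (chr7:135715611-135715854) had 6.96, 7.03, 4.55 and 6.06 in wild type and 10.9, 10.3, 8.78 and 10.0 in knockout, at 0.67 ± 0.29 (edgeR adjusted p = 0.988). Counts were again low there, at 7 to 31 tags per library. The other 4 were an intergenic peak 70588 bp upstream of Cdk6 (0.68 ± 0.36), an E2f3 promoter peak at chr13:29986529-29986754 (-0.28 ± 0.22), an Mcm5 promoter peak at chr8:75108616-75108836 (-0.54 ± 0.27) and an Mki67 intergenic peak 20178 bp upstream (-0.27 ± 0.22). Of these, the E2f3 peak came from the wild-type list alone, and the Cdk6, Mcm5 and Mki67 peaks from both lists. The Mcm4 promoter peak, stood at -0.42 ± 0.17 (edgeR adjusted p = 0.943) on 67 to 87 tags per wild-type library and 19 to 107 per knockout library.

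**Figure D5:**
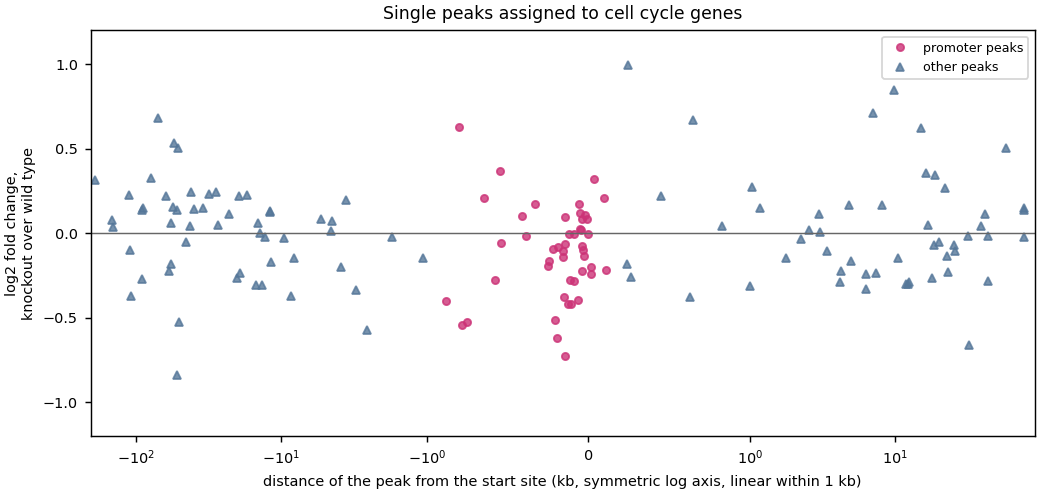
Log2 fold change, knockout over wild type (y axis), of the 153 tested member peaks against distance from the assigned start site in kb (symmetric log axis, linear within 1 kb), with promoter peaks as circles and others as triangles. Peaks lie on both sides of 0 both upstream and downstream, from -0.84 near Ccnd1 to 0.99 in the Cdc25a 5′ UTR, and none passed the test.

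Further genes of the pathway, 101 in 5 lists, gave the same count of calls. Of 88 tested over all peaks, 0 passed edgeR or DESeq2, and 6 (edgeR) and 2 (DESeq2) stood under an unadjusted 0.05. With edgeR, 5.96% of all genes stood under that level. Below 0 were 49 of the 88, against 49.5% of all genes, and the median fold change was -0.02. At promoters 81 were tested, 0 passed with either tool, and 1 (edgeR) and 0 (DESeq2) stood under an unadjusted 0.05. With edgeR, 4.72% of all promoters stood under that level. Below 0 were 46 of the 81, against 48.6% of all promoters, and the median was -0.03. In 4 of the lists over all peaks, the smallest p belonged to Mcm10 for origin licensing (9 tested, -0.19 ± 0.22), E2f5 for DREAM, E2F and cell cycle transcription (14 tested, -0.37 ± 0.15), Cdkn1c for other kinase inhibitors and kinases (13 tested, 0.255 ± 0.14) and Kif23 for the mitotic machinery (26 tested, -0.28 ± 0.09). Kif23, a motor of the central spindle, had the smallest of these, an unadjusted p of 0.00635 and an edgeR adjusted p of 0.543. At promoters the genes with the smallest p were Orc5 (0.19 ± 0.15), Rfc5 (0.37 ± 0.19), Lin54 (0.24 ± 0.13), Skp2 (-0.26 ± 0.15) and Cdca8 (-0.44 ± 0.20).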

How the data were processed

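The deposited table holds raw tag counts per peak and library for 8 ATAC-seq libraries (gel-selected at 165 to 250 bp, single-end, 51 cycles, per the labels' protocols). Per the file headers, the authors counted tags with HOMER over a merged list of IDR peaks from both genotypes at the given peak sizes, with at most 3 tags per position. Bowtie2, HOMER, DESeq2 and the mm10 build are named in the submitters' processing notes. Alignment settings, any transposase shift of read ends and duplicate removal were not given in the sources used here. A second table, of normalized values, was not used. The 117 peaks without a gene (0.134% of tags in peaks) stayed out of gene sums.

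Counts were tested with edgeR 4.0.16 in R 4.3.3: TMM scaling, filterByExpr at a minimum count of 10, the quasi-likelihood F test over all features, both genotypes of 4 in 1 fit with genotype as the only term, Benjamini-Hochberg adjustment and a threshold of 0.05. Gene sums, promoter sums (peaks annotated promoter-TSS) and single peaks were fitted separately, so CPM (tags scaled to a common total) are relative to the tags of each table. Intervals are 95% and unadjusted, with SE taken from the F statistic. DESeq2 1.42.0, other scalings, no filter, robust moderation, a replicate block, other peak sets and left-out libraries were alternatives. The script was tested on simulated data. Gene spans and promoter windows came from RefSeq tables of GRCm38.p6, the assembly of mm10.

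The members and lists were chosen with earlier results of these data known. Values per library are given for members that passed, the 6 with the smallest p in gene sums and the 6 in promoter sums, the most open promoter of each of 7 roles, and the 6 peaks with the smallest p. Of other pathway lists, the gene with the smallest p is named, except 1 that is not reported here. Peaks whose genotypes did not overlap, and the Mcm4 neighbour Prkdc, were named after their values were seen.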

Additional observations from a re-analysis of the deposited data

Results flagged for a closer look

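In 7 of the 140 groups of 4 libraries examined (each member, genotype and sum), 1 library lay far from the other 3 relative to the range of the group; chance alone flags about 1 in 20 such groups. Over all peaks, knockout replicate 1 had 124 CPM at Cdkn1a against 85.0 to 91.1 in the other knockout libraries. Wild-type replicate 3 had 69.2 at E2f1 against 56.1 to 57.4. Knockout replicate 3 had 52.5 at Rb1 against 42.3 to 43.4, and knockout replicate 4 had 18.8 at Mcm2 against at most 14.0. At promoters, replicate 2 stood low at Cdk6 in both genotypes, with 13.7 in wild type against 34.3 to 35.6 and 10.6 in knockout against 33.3 to 36.5. These Cdk6 values rest on 6 tags in the wild-type and 2 tags in the knockout library. Knockout replicate 1 had 175 at the Cdkn2c promoters against 127 to 132. The causes were not tested.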

How the results depend on the processing

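No member was called under any of the 17 alternatives for gene sums, 17 for promoter sums or 16 for single peaks, where the smallest adjusted p of a member was 0.28, 0.122 and 0.27 with edgeR or DESeq2. No change of direction occurred among the 6 gene sums, 8 promoter sums and 6 single peaks recomputed one by one under these alternatives; other members were not. Counts over all genes did move. For gene sums (33 called) the count was 16 with peaks found in both lists, 5 with scaling to all tags, 70 without knockout replicates 1 and 2 together, and 20 to 42 with 1 library left out (20 without knockout replicate 3, 21 without wild-type replicate 3). For promoter sums (8 called) it was 4 with DESeq2, 4 with peaks in both lists, 2 with scaling to all tags, and 5 to 30 with 1 library left out (5 without knockout replicate 3 or wild-type replicate 3, 14 without wild-type replicate 4, 30 without wild-type replicate 1). For single peaks (99 called) it was 31 with peaks in both lists, 19 with scaling to all tags, 246 without knockout replicates 1 and 2 together and 65 to 123 with 1 library left out (65 without knockout replicate 3). The cause was not tested. The members' median fold change became 0.041 in gene sums with scaling to all tags, where the median of all genes was 0.088, and ran from -0.128 to -0.03 with 1 library left out; promoter medians ran from -0.096 to 0.001.

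Whether replicate numbers pair the libraries is not settled by these values. Deviations from group means correlated at 0.0138, 0.0934, -0.0244 and 0.186 for same-numbered libraries and at -0.135 to 0.0892 for the other pairs. With a replicate block all features called were 38 for gene sums, 27 for promoter sums and 140 for single peaks, and 0 members. Without the block they were 33, 8 and 99. The Cdc25a promoter ranged from -0.52 to -0.26 and Mcm4 from -0.48 to -0.31 in gene sums over the alternatives. Depth limits the promoters of Plk1, Ccnb2, Cdk6, Aurkb and Ccnd2, which rest on fewer than 40 tags per library.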
